A study of Mus musculus with 12 samples.

Results

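The genes described here encode the enzymes that write and erase DNA methylation, with the cofactors that act beside them, in whole bone marrow (BM) of mice. They were chosen by symbol. Of 10 listed genes, 9 have a row among the 12199 genes of the count table, namely Tet1, Tet2, Tet3, Dnmt1, Uhrf1, Dnmt3a, Dnmt3b, Idh1 and Idh2, and all 9 passed the filter on low counts that left 12175 genes to test. The listed gene Tdg was not analysed here.

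DNA methylation is set by a cycle of opposed reactions. DNMT3A and DNMT3B place methyl groups on unmethylated CpG sites, and DNMT1, brought to newly replicated DNA by UHRF1, copies the pattern to the daughter strand. The TET dioxygenases oxidize 5-methylcytosine and need iron, oxygen and 2-oxoglutarate, the product of the isocitrate dehydrogenases IDH1 (cytosol and peroxisomes) and IDH2 (mitochondria). Mutations in DNMT3A, TET2, IDH1 and IDH2 recur in human acute myeloid leukemia, and those of IDH1 and IDH2 yield 2-hydroxyglutarate, which inhibits TET enzymes.

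All mice were C57BL/6, and all, WT included, had received poly(I:C), an inducer of the interferon-responsive Mx-Cre transgene. DF mice carried 1 floxed Dnmt3a allele, MxCre and 1 Flt3 ITD allele, in which part of the FLT3 receptor kinase is duplicated in tandem. TF mice were Tet2+/- with Flt3ITD/+, with no floxed allele or Cre in their label, and TFD mice combined Tet2+/-, Flt3ITD/+, the floxed Dnmt3a allele and MxCre. Libraries came from 3 WT, 3 DF, 3 TF and 2 TFD samples, and TFD replicate 3 was not analysed here. Every mutant group carried Flt3ITD and no group carried it alone, so the part of Flt3ITD in any difference from WT and that of the other alleles cannot be told apart. The labels do not say which animal gave each sample, so p-values measure the spread between these samples.

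Library totals ran from 8274153 to 15900904 counts, which gave each member between 76 (Dnmt3b) and 6517 (Dnmt1) reads in a library. The mix of cells differed between groups. The summed level of 11 B cell markers was 587 to 727 CPM (reads of a gene scaled to library size) in WT libraries and 16.9 to 91.3 CPM in mutant libraries, with up to 3 of the 11 at 0 counts. The 10 erythroid markers summed to 1450 to 1906 CPM in WT and 296 to 1526 CPM in mutants, and the 9 monocyte markers to 1919 to 2022 CPM and 5510 to 6917 CPM. The 9 stem and progenitor markers, Flt3 among them, summed to 249 to 254 CPM in WT and 499 to 627 CPM in mutants, and the 9 T and NK markers to 155 to 193 CPM and 58.8 to 146 CPM. TF replicate 3 stood nearest to WT, with 91.3 CPM of B cell and 1526 CPM of erythroid markers. Xist, the RNA of the inactive X chromosome, had at least 10000 reads in WT replicate 3, TF replicate 3 and TFD replicate 2 and in no DF library. Ddx3y, read as a check of sex, had 3, 12 and 4 reads in these libraries and 1040 to 2132 in the others. The labels call the material mononuclear cells, and the 11 neutrophil markers summed to 13129 to 29150 CPM across the 11 libraries. In such bulk samples, fewer cells of a type and less RNA per cell cannot be told apart, and the part of these cell mixes in the results on the members was not tested.

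The maintenance pair, Dnmt1 and Uhrf1, were the only members with a match to 1 of 3 spelled-out forms of the E2F site, the element bound by the factors that drive S-phase genes. The forms searched on both strands were TTTCGCGC, TTTGGCGC and TTTCCCGC, which do not contain one another, in windows from 250 bases before to 50 after each RefSeq start (GRCm38.p6, the same build as mm10). All 9 members matched a RefSeq entry, with 15 windows between them, and a form was held by 1.84% of all 32851 windows. The share among windows of like CpG count was not computed. Of the 9 members, 5 had 1 window, while Dnmt1 and Uhrf1 had more. The windows of the pair with a match are shown because these genes act together and yet only Uhrf1 passed the test against WT. The Dnmt1 window lies at chr9:20952574-20952873 on the minus strand, at the most downstream of 3 starts, and the Uhrf1 window at chr17:56304063-56304362 on the plus strand, at the second of its starts. Capitals mark the matches, the first in Dnmt1 being on the opposite strand.
Dnmt1: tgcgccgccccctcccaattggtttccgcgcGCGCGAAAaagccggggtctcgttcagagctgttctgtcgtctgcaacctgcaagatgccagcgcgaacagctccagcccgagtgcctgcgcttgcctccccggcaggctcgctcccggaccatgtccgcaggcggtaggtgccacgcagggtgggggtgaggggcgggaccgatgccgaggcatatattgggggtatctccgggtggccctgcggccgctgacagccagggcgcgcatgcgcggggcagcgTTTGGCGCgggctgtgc
Uhrf1: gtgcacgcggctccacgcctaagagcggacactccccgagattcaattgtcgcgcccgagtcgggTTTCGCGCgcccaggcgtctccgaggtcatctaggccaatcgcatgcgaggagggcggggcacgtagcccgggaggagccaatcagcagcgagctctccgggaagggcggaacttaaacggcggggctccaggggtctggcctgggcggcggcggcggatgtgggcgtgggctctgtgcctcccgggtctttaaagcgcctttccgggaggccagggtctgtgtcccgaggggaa
A match is a run of letters and not a shown binding site. CpG dinucleotides numbered 57 in the Tet2 window and 46, 47 and 18 in those of Dnmt3a, 33 in each of the windows shown and 30 in that of Dnmt3b, against a median of 7 over all windows. The Tet2 count exceeded that of 99.8% of windows. The other Dnmt1 windows held 2, below that median, and 12, and the other Uhrf1 window held 12. Those of Tet1, Idh2 and Tet3 held 17, 20 and 22, and both Idh1 windows held 23.

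Against WT, the members that rose in every mutant group were Dnmt3b, Idh1 and Idh2, and the member that fell in every mutant group was Uhrf1. Tet2 rose in DF, and Tet1 and Dnmt3a rose in TF, whereas Dnmt1 and Tet3 passed the test in no group. Tests used the quasi-likelihood F test of edgeR with Benjamini-Hochberg adjustment over all genes tested. Calls required an adjusted p below 0.05. In DF, 4 of 9 members rose and 1 fell, where 37.6% of all genes tested were called. In TF, 5 rose and 1 fell with a background of 34.6%, and in TFD, 3 rose and 1 fell with a background of 26.3%. The 9 members had a median log2 fold change of 0.05 (DF), 0.50 (TF) and 0.25 (TFD), and that of all genes tested was 0.05, 0.02 and 0.01. Without TF replicate 3, 5 members were called in TF, and the call lost was that of Dnmt3a.

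**Figure D1:**
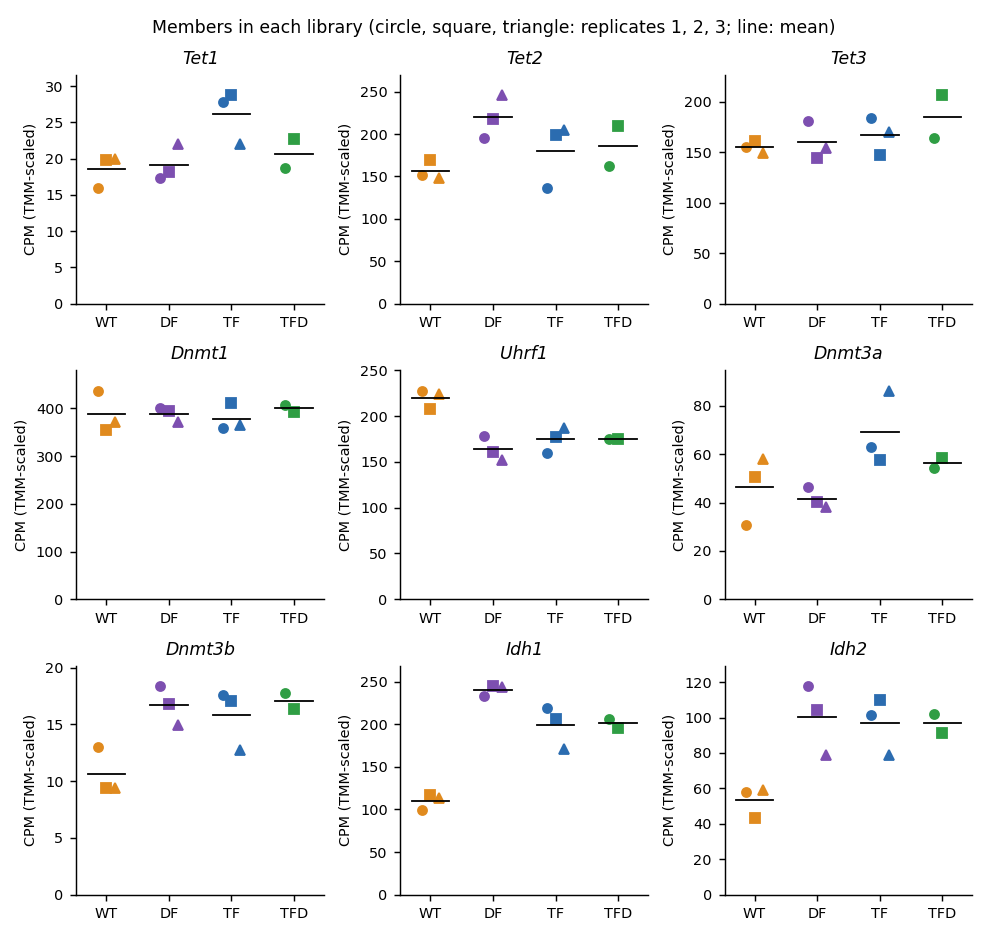
Level of each member in CPM with TMM-scaled library sizes (vertical axes from 0) in each WT, DF, TF and TFD library, with the mean of each group as a line. Idh1, Idh2 and Uhrf1 do not overlap between WT and any mutant group, and TF replicate 3 is the highest Dnmt3a library at 86.2 CPM. The share of all genes without such overlap was not counted.

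The targeted genes were examined first. Tet2 (chr3:133463677-133544390 in mm10, minus strand) encodes the TET enzyme most often mutated in myeloid disease, and 1 of its alleles was disrupted in TF and TFD mice. Its levels were 152, 169 and 148 CPM in WT, 136, 199 and 205 CPM in TF, and 163 and 209 CPM in TFD. The TF libraries lay on both sides of the WT libraries, and the TFD libraries overlapped them. Tet2 in TF was 1.15-fold of WT (95% interval 0.911 to 1.46, edgeR adjusted p = 0.330), and in TFD 1.19-fold (0.916 to 1.54, adjusted p = 0.318). The log2 value in TF, 0.20, moved to 0.37, 0.13 and 0.10 when TF replicates 1, 2 and 3 were left out in turn. That in TFD, 0.25, was 0.42 without TFD replicate 1 and 0.06 without TFD replicate 2, and none of these was called. Counts run over all exons of a gene, so RNA from a disrupted allele that is still transcribed is not separated from RNA of the intact allele.

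In DF, whose Tet2 alleles were both intact, Tet2 was at 196, 218 and 246 CPM. All 3 DF libraries lay above all 3 WT libraries. The log2 fold change was 0.49 ± 0.16 (SE), a 1.41-fold level with an edgeR adjusted p of 0.0261. The call was lost without WT replicate 1 (0.44), WT replicate 3 (0.42), DF replicate 2 (0.50) or DF replicate 3 (0.38), with adjusted p between 0.0619 and 0.112, and with library totals (0.41, adjusted p = 0.0505). DF and TF were compared directly, and Tet2 did not pass the test (0.29 ± 0.16, adjusted p = 0.353).

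Dnmt3a (chr12:3806980-3914443, plus strand), the main de novo methyltransferase of adult blood cells, was the gene floxed in DF and TFD. Its levels were 30.9, 50.4 and 57.8 CPM in WT, a wide spread, and 46.4, 40.2 and 38.0 CPM in DF. The DF libraries fell inside the WT range, and the fold was 0.899 (95% interval 0.660 to 1.22, edgeR adjusted p = 0.578). With offsets for gene length or a term for libraries rich in Xist the log2 fold change, -0.15 ± 0.21, turned to 0.15 and 0.004, and without WT replicate 3 to 0.007. The TFD libraries, at 54.4 and 58.6 CPM, were 1.22-fold of WT (0.869 to 1.71, adjusted p = 0.382), with DF and TFD not overlapping. Its log2 value of 0.29 was 0.06 without WT replicate 1 and 0.48 without WT replicate 3. The difference between DF and TFD was -0.44 ± 0.23 on the log2 scale, with an adjusted p of 0.403.

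TF libraries, which have both Dnmt3a alleles, held 63.2, 57.7 and 86.2 CPM of Dnmt3a. TF replicate 2 lay just under WT replicate 3, and TF replicate 3 stood above all other libraries. The log2 fold change was 0.58 ± 0.20, with an edgeR adjusted p of 0.0444. Without TF replicate 3 it was 0.39 with an adjusted p of 0.149, and without WT replicate 1, the lowest library, 0.34 with an adjusted p of 0.143. The call was also lost without WT replicate 2 (0.64), TF replicate 1 (0.64), TFD replicate 2 (0.57), or DF replicate 1 (0.58), 2 (0.58) or 3 (0.57). With RLE factors it was 0.55 (adjusted p = 0.0506), with only TF and WT in the fit 0.56 (adjusted p = 0.0876), and the call held in 9 of 19 alternatives.

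DF and TF did not overlap in Dnmt3a, and all 3 DF libraries were lower. The log2 difference was -0.73 ± 0.20, or 0.603-fold, and its edgeR adjusted p of 0.0551 missed the threshold. DESeq2 gave -0.76 with an adjusted p of 0.00778, and over all alternatives the adjusted p ran from 0.00778 to 0.208. Among all genes tested, 5.94% were called between DF and TF. The erythroid markers summed to 296 to 429 CPM in DF and 563 to 1526 CPM in TF, with 9 of 10 called lower in DF, and the neutrophil markers to 22448 to 29150 CPM and 13129 to 18955 CPM, with positive log2 differences in 11 of 11, of which 1 was called. Their part in the differences between DF and TF, here and in the pathway lists, was not tested.

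Dnmt3b (chr2:153649449-153687730, plus strand), the other de novo enzyme, is known for its high expression in early embryos and is the scarcer of the pair in these libraries. Its levels were 12.97, 9.41 and 9.40 CPM in WT and 18.3, 16.8 and 14.9 CPM in DF. TF libraries held 17.6, 17.0 and 12.8 CPM, and TFD libraries 17.8 and 16.3 CPM. All mutant libraries lay above WT except TF replicate 3, which fell just under WT replicate 1. Against WT, DF libraries were higher by 0.65 ± 0.17 on the log2 scale (edgeR adjusted p = 0.0107). TF libraries were higher by 0.57 ± 0.17 (0.0226), and the TFD pair by 0.68 ± 0.19 (0.0189). For DF this call was lost without WT replicate 3 (0.53) or DF replicate 1 (0.56). In TF it was lost without WT replicate 2 (0.50) or 3 (0.48), or TF replicate 1 (0.49) or 2 (0.52), and in TFD without WT replicate 2 (0.61) or 3 (0.59), or TFD replicate 1 (0.61).

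Per kilobase of exon, the ratio of Dnmt3a to Dnmt3b RPKM was 1.04, 2.33 and 2.68 in the WT libraries. It was 1.04 to 1.11 in DF, 1.33 to 1.56 in TFD and 1.47 to 2.94 in TF. The 3 DF ratios were among the 4 lowest of the 11, with WT replicate 1 beside them. These ratios are given as a description, with no test.

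Dnmt1 (chr9:20907206-20959888, minus strand), the maintenance methyltransferase, was at 437, 354 and 371 CPM in WT and between 359 and 411 CPM in all 8 mutant libraries. Every mutant library lay within the WT range. The fold against WT was 1.005 in DF (95% interval 0.853 to 1.18), 0.977 in TF (0.829 to 1.15) and 1.03 in TFD (0.860 to 1.24), with edgeR adjusted p between 0.815 and 0.967. The sign of the DF value changed with library totals, RLE factors and DESeq2.

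Uhrf1 (chr17:56303337-56323486, plus strand), which recognizes hemimethylated CpG sites and recruits DNMT1, was at 228, 208 and 224 CPM in WT. DF libraries held 178, 161 and 152 CPM, TF libraries 160, 177 and 187 CPM, and both TFD libraries 175 CPM. All 8 mutant libraries were below all 3 WT libraries, and the mutant groups overlapped one another. DF stood at 0.746-fold of WT, a log2 change of -0.42 ± 0.10 (edgeR adjusted p = 0.0049). The change was -0.33 ± 0.10 for TF (adjusted p = 0.0197), whereas TFD had -0.33 ± 0.11 (adjusted p = 0.0415).

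The DF call for Uhrf1 held in all 19 alternatives. The TF call was lost without WT replicate 1 (-0.31), TF replicate 1 (-0.27) or TF replicate 2 (-0.34). For TFD it held in 8 of 19 and was lost without WT replicate 1 (-0.30), 2 (-0.37) or 3 (-0.32), DF replicate 2 (-0.33), TF replicate 1 or 2 (both -0.33), or TFD replicate 1 (-0.33) or 2 (-0.32). It was lost as well with library totals (-0.33, adjusted p = 0.0647) and with only TFD and WT in the fit (-0.33, adjusted p = 0.118). Uhrf1 is expressed with the cell cycle. Of 15 genes of cycling cells, 5 fell in DF, 3 fell and 1 rose in TF, and 7 fell in TFD. Over all genes tested, 16.6%, 15.6% and 11.6% were called lower in DF, TF and TFD. The summed level below is of the 15 cycling genes. Their summed level was 6745 to 7152 CPM in WT and 5244 to 6140 CPM in the mutant libraries, with no overlap. The part of cycling in the Uhrf1 result was not tested.

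The ratio of Dnmt1 to Uhrf1 RPKM was 0.961 to 1.11 over the WT libraries. It lay at 1.30 to 1.42 for DF, 1.13 to 1.34 for TF and 1.30 to 1.35 for TFD. TF replicate 3, at 1.13, was the mutant library closest to WT. No test was run on this ratio.

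Idh1 (chr1:65158616-65186479, minus strand) was the member with the largest change. WT libraries held 98.9, 117 and 114 CPM, and DF libraries 233, 244 and 244 CPM. TF libraries held 219, 206 and 171 CPM, and the TFD pair 206 and 196 CPM. Every mutant library exceeded every WT library, and within TF the third replicate was lowest. DF reached 2.19-fold of WT (95% interval 1.85 to 2.58, edgeR adjusted p = 1.9e-05). TF reached 1.81-fold (1.53 to 2.13, adjusted p = 0.000126), close to the 1.83-fold of TFD (1.53 to 2.19, adjusted p = 0.000268). The DF libraries lay above all TF and TFD libraries, but the log2 differences, 0.27 ± 0.11 against TF (adjusted p = 0.182) and 0.26 ± 0.12 against TFD (adjusted p = 0.366), did not pass the test.

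Idh2 (chr7:80094847-80115350, minus strand) was at 58.1, 43.4 and 59.003 CPM in WT and at 118, 104 and 78.6 CPM in DF. TF libraries held 102, 110 and 78.8 CPM, and TFD libraries 102 and 91.3 CPM. Again no mutant library reached down to WT. DF held 1.87-fold the WT level (95% interval 1.45 to 2.41, edgeR adjusted p = 0.0014). TF held 1.80-fold (1.40 to 2.33, adjusted p = 0.0024), and TFD 1.81-fold (1.36 to 2.39, adjusted p = 0.0051). The calls for Idh1 and Idh2 held in all 19 alternatives in each of DF, TF and TFD. The monocyte markers, given above, were also higher in the mutants, with 8, 9 and 7 of 9 called higher in DF, TF and TFD and positive values in all 9. Of the 9 stem and progenitor markers, 5, 4 and 5 were called higher, and 1 was called lower in TF. Over all genes tested, 21%, 19% and 14.7% were called higher. The part of these cells in the Idh1 and Idh2 results was not tested.

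Tet1 (chr10:62804570-62880014, minus strand) had the lowest level of the members per kilobase of exon. WT libraries held 16.0, 19.8 and 19.97 CPM, DF libraries 17.3, 18.1 and 22.1 CPM, TF libraries 27.8, 28.7 and 22.0 CPM, and TFD libraries 18.7 and 22.6 CPM. TF lay above WT without overlap, whereas DF and TFD overlapped it. The log2 change in TF was 0.50 ± 0.15 (edgeR adjusted p = 0.0245), and the call was lost without WT replicate 1 (0.39), TF replicate 1 (0.45) or TF replicate 2 (0.43). It was 0.04 in DF (adjusted p = 0.841), a value that fell below 0 with library totals, RLE factors and DESeq2 and was 0.43 with length offsets (adjusted p = 0.0553), and 0.15 in TFD (adjusted p = 0.551). For TFD it was 0.29 without TFD replicate 1, 0.02 without TFD replicate 2 and 0.05 without WT replicate 1. Between DF and TF the log2 difference was -0.45 ± 0.15 with an adjusted p of 0.108, so a difference in Tet1 between these genotypes was not shown.

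Tet3 (chr6:83362374-83441678, minus strand) was at 155, 161 and 149 CPM in WT and between 144 and 206 CPM in the mutant libraries. Both TFD libraries, at 164 and 206 CPM, lay above WT, and the other groups overlapped it. Its fold against WT was 1.03 for DF (95% interval 0.857 to 1.24), 1.07 for TF (0.892 to 1.29) and 1.19 for TFD (0.970 to 1.47), with edgeR adjusted p of 0.793, 0.540 and 0.195, and the DF value fell below 1 with the same 3 alternatives. The log2 value for TFD, 0.25, was 0.41 without TFD replicate 1 and 0.08 without TFD replicate 2. That for TF, 0.10, moved to 0.03 and 0.19 when TF replicates 1 and 2 were left out in turn, and to 0.07 without WT replicate 3. When offsets for gene length were fitted in each library, Tet3 rose in all 3 mutant groups, by 0.37 (DF, adjusted p = 0.0269), 0.33 (TF, 0.0495) and 0.40 (TFD, 0.0380) on the log2 scale. Under the same offsets Tet2 rose in TF as well (0.39, adjusted p = 0.0438), and the rises of Tet2 in DF and Tet1 in TF were 0.76 and 0.78.

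**Figure D2:**
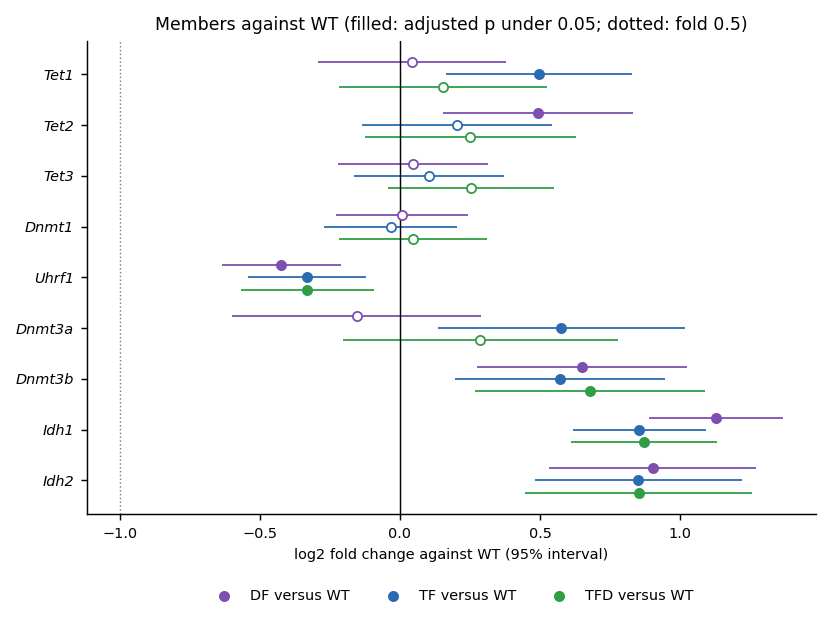
Log2 fold change of each member in DF, TF and TFD against WT with its 95% interval from edgeR. Filled points passed an adjusted p of 0.05, the dotted line marks a fold of 0.5, and none of the 27 intervals reaches it. Counts run over all exons of a gene, so these intervals do not test the loss of 1 allele.

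Between mutant groups, 0 of 9 members were called in each of the 3 comparisons. At an unadjusted p under 0.05, 3 members differed between DF and TF (Tet1, Dnmt3a and Idh1) and 0 in the other comparisons. At that threshold 2316 of the 12175 genes differed between DF and TF, 1727 between DF and TFD, and 1068 between TF and TFD. Over all genes, 0% were called between DF and TFD and 0.0164% between TF and TFD. Dnmt3a passed between DF and TF with DESeq2, with library totals, with RLE factors and with only those groups in the fit, and Tet1 passed with library totals (-0.54, adjusted p = 0.0457). No alternative called a member between TFD and either of the other mutant groups. All comparisons with WT share the same 3 WT libraries.

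Levels per kilobase of exon (RPKM, from counts and the exon length in the table) placed the members in order. In WT, Dnmt1 (61.4 ± 6.91 RPKM, SD, n = 3) and Uhrf1 (60.2 ± 2.84) led and overlapped. They were followed by Idh1 (45.1 ± 4.03), Idh2 (31.4 ± 5.13), Tet2 (17.0 ± 1.23), Tet3 (14.2 ± 0.549), Dnmt3a (4.66 ± 1.40), Dnmt3b (2.45 ± 0.476) and Tet1 (1.32 ± 0.159), with no overlap between neighbours. In every mutant group Idh1 came first, at 98.6 ± 2.63 RPKM in DF, 81.5 ± 10.2 in TF and 82.5 ± 2.88 in TFD (n = 2).

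Uhrf1 moved to the fourth place in the mutants, at 44.9 ± 3.68 RPKM in DF and 47.8 ± 3.66 in TF. There, Dnmt1 and Idh2 overlapped, as did Idh2 and Uhrf1, while in TFD these levels stood apart over 2 libraries. The order of the lower members, from Tet2 down to Tet1, was the same in the 4 groups, although Tet2 and Tet3 overlapped in TF and TFD, and Dnmt3a and Dnmt3b in DF. Tet2 made up 52.2% of the summed RPKM of the Tet genes in WT. Its share was 59.8% for DF, 53.0% for TF and 52.3% for TFD. The TF share ranged from 44.1% to 58.3% between libraries. Dnmt1 made up 85.0% to 89.5% of the summed RPKM of the Dnmt genes in the group means.

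**Figure D3:**
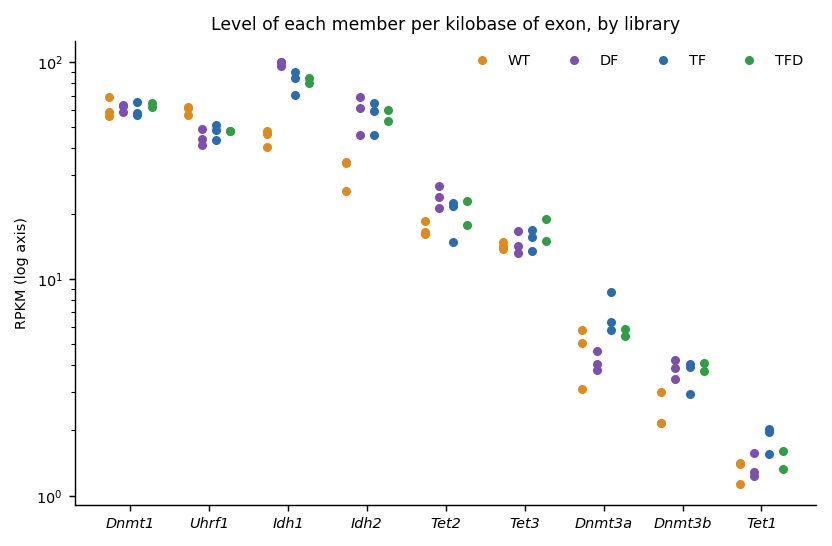
RPKM of each member in each library on a log axis, with members in their order in WT. Idh1 in DF, at 95.5 to 100.2 RPKM, is the highest level plotted, and Tet1 is the lowest member in every group.

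Other genes of the same pathway were read from lists by role. For the counts in each list, the share called over all genes tested was 37.6% in DF, 34.6% in TF and 26.3% in TFD. Among 11 partners of the methyltransferases, 2 rose and 3 fell in DF, and 2 fell in each of TF and TFD. Usp7, a deubiquitinase that binds DNMT1 and UHRF1, fell in all 3 groups, by 0.55 ± 0.11, 0.51 ± 0.11 and 0.50 ± 0.12 on the log2 scale. Lig1, the ligase of Okazaki fragments to which UHRF1 can bind, fell in DF by 0.45 ± 0.11 and in TF by 0.34 ± 0.11. Uhrf2 fell in DF by 0.36 ± 0.12, and Pcna, the replication clamp that also binds DNMT1, fell in TFD by 0.41 ± 0.11.

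In the other direction, Dnmt3l, the catalytically inactive partner of the de novo enzymes, rose in DF by 1.56 ± 0.40 and was also higher in DF than in TF by 1.51 ± 0.39 (edgeR adjusted p = 0.0404). Cdca7, which acts with the remodeler HELLS, rose in DF by 0.38 ± 0.12. Hells itself was at 0.09, -0.02 and 0.02 in DF, TF and TFD. The list medians were -0.20, -0.17 and -0.12, against all-gene medians of 0.05, 0.02 and 0.01.

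Of 8 readers of methylated CpG sites, 1 fell in DF and 0 were called in TF or TFD. The gene that fell was Zbtb4, a zinc-finger reader (-0.94 ± 0.27, edgeR adjusted p = 0.0160). Mbd4, a reader with a glycosylase domain, was lower in DF than in TF by 0.47 ± 0.12. The list medians were -0.17, -0.14 and -0.17.

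Of 10 measured genes of base excision repair, the route that completes demethylation after TDG, 1 rose and 1 fell in DF and in TF, and 1 fell in TFD. Neil1, a glycosylase, fell in all 3 groups, by 1.50 ± 0.21, 1.16 ± 0.21 and 1.49 ± 0.24 on the log2 scale. Apex1, the abasic-site endonuclease, rose in DF (0.51 ± 0.15) and TF (0.47 ± 0.15). The list medians of -0.04, 0.13 and 0.15 lay within 0.15 of the all-gene medians.

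Among partners of the TET enzymes, 4 of 7 listed genes were measured. Cxxc5, a CXXC-domain protein that can bring TET2 to DNA, fell by 1.34 ± 0.19 in DF, 0.77 ± 0.18 in TF and 1.02 ± 0.21 in TFD. Vprbp, the substrate receptor of the ubiquitin ligase that modifies TET proteins, fell by 0.93 ± 0.12, 0.75 ± 0.12 and 0.61 ± 0.13. Slc23a2, a transporter of vitamin C, a TET cofactor, rose in DF (0.38 ± 0.13) and TF (0.39 ± 0.13). Ogt, a glycosyltransferase that binds TET2 and TET3, was at -0.19, -0.28 and -0.16 and was not called. The medians over these 4 genes were -0.56, -0.51 and -0.38.

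**Figure D4:**
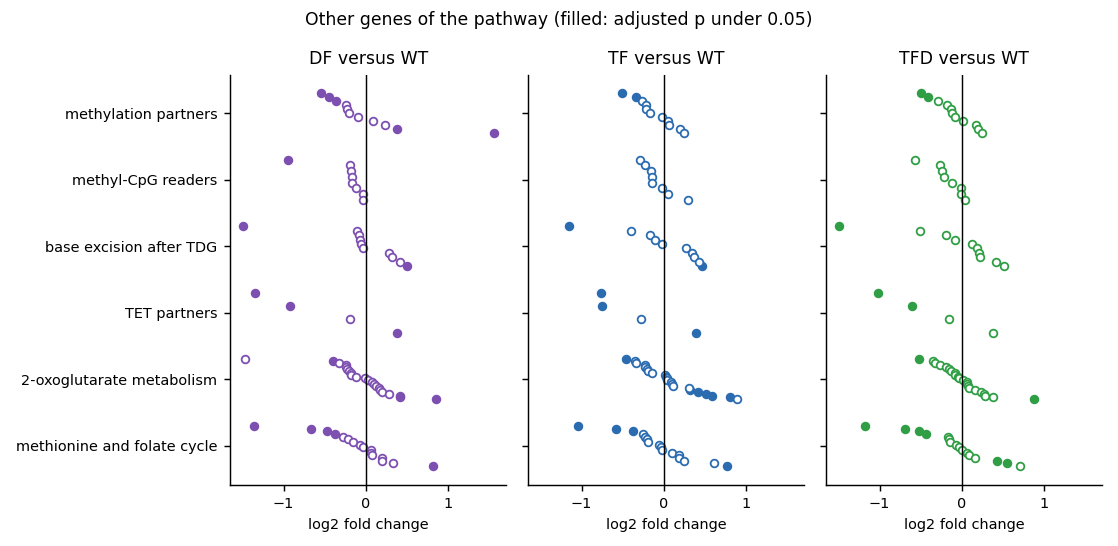
Log2 fold changes of the pathway genes in DF, TF and TFD against WT, by list, with filled points for an adjusted p under 0.05. Neil1, Cxxc5 and Mthfd1 are the lowest called points of their lists in each group.

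The rise of Idh1 and Idh2 was set beside 22 other genes of 2-oxoglutarate metabolism, of which 3 rose and 1 fell in DF, 5 rose and 1 fell in TF, and 1 rose and 1 fell in TFD. Glud1, the mitochondrial enzyme that makes 2-oxoglutarate from glutamate, rose in all 3 groups, by 0.85 ± 0.10, 0.80 ± 0.10 and 0.88 ± 0.11. The NAD-dependent isocitrate dehydrogenase of the Krebs cycle went 2 ways in DF and TF. Its catalytic subunit gene Idh3a fell by 0.40 ± 0.14 and 0.45 ± 0.14, and its regulatory subunit gene Idh3g rose by 0.42 ± 0.11 and 0.52 ± 0.11.

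Fh1, fumarate hydratase, rose in TF by 0.59, and DF was lower than TF by 0.43 ± 0.10 on the log2 scale. The list medians of 0.01, 0.04 and -0.01 were close to the all-gene medians.

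Of 16 measured genes of the methionine and folate cycle, which supplies the methyl donor, 1 rose and 4 fell in DF, 1 rose and 3 fell in TF, and 2 rose and 4 fell in TFD. Mthfd1, the cytosolic folate enzyme, fell by 1.35 ± 0.19, 1.05 ± 0.19 and 1.18 ± 0.22, and Mtrr, which reactivates methionine synthase, by 0.66 ± 0.15, 0.59 ± 0.15 and 0.69 ± 0.17. Shmt1, the cytosolic serine hydroxymethyltransferase, rose in DF (0.81 ± 0.24), and Ahcyl2, a relative of the S-adenosylhomocysteine hydrolase, in TFD (0.43). Mthfd2, the mitochondrial folate enzyme, fell in DF by 0.47 and in TFD by 0.52. Mat2a, the synthase of S-adenosylmethionine, was at 0.07, -0.05 and 0.06. The list medians were -0.06, -0.04 and -0.06.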

How the data were processed

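RNA from BM cells was depleted of globin transcripts and sequenced from stranded total RNA libraries. The authors aligned reads to mm10 with STAR and deposited raw counts of unique reads per refGene gene from featureCounts. Versions and the strand setting are not given in the sources used here. Log2 CPM values were deposited too, and equalled TMM-scaled CPM from edgeR (prior count 0.25) within 5e-09, and another kind of column, the gene length, used here for RPKM. Genes with over 0.5 CPM in more than 3 of 11 libraries (12175) entered edgeR 4.0.16 (R 4.3.3), with TMM factors and 1 quasi-likelihood fit over the 4 genotypes. DESeq2 1.42.0 was an alternative, and the others were other scalings, no filter, offsets for gene length, a term for Xist, a replicate block, fewer groups and leaving out each replicate. The test was also run on simulated data, and the outcome is not reported here.

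The members and the gene lists were chosen with earlier results of these data known. Every member was named. From each list the counts, the median and called genes with the largest changes against WT (at most 3 per direction) were named, apart from some not reported here, and Hells, Ogt and Mat2a were added for their roles, with Mbd4 for its call between DF and TF. No exon of another gene in GENCODE M21 overlapped the exons counted for a member.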

Additional observations from a re-analysis of the deposited data

How the results depend on the processing

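Direction and call held for Idh1, Idh2 and, in DF, Uhrf1 under the 19 alternatives. Leaving out 1 replicate gave 3 to 5 members called in DF, 2 to 6 in TF and 2 to 4 in TFD against WT, and 0 to 1 between DF and TF. Between DF and TF, 1 member was called with DESeq2, RLE factors or only the groups compared, and 2 with library totals. Genes called between DF and TF ran from 169 to 933 without 1 replicate. Between DF and TFD they numbered 258 with DESeq2, 135 with only the groups compared and 0 to 384 without 1 replicate. At an unadjusted p under 0.05, 1727 genes differed there with edgeR. Between TF and TFD they numbered 131 with DESeq2, 22 with the Xist term, 0 with only the groups compared and 2 to 76 without 1 replicate. The cause was not tested. The share of higher calls moved with library totals from 55.9% to 42.3% in DF against WT and from 28.1% to 13.9% between DF and TF, and with offsets for gene length from 28.1% to 40.5% between DF and TF.

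Fold changes were recomputed for all members against WT and for Tet1, Dnmt3a and Idh1 between DF and TF. Among these, the values that changed sign were uncalled and in comparisons with WT. In DF, with DESeq2, library totals and RLE factors, Tet1 went to -0.00136, -0.0440 and -0.00126, Tet3 to -0.000305, -0.0404 and -0.00033, and Dnmt1 to -0.0388, -0.0817 and -0.0385. Dnmt1 went to -0.0181 with the Xist term and -0.0299 with only the groups compared, and Dnmt3a to 0.148 with length offsets and 0.00359 with the Xist term. Without 1 replicate in turn, the DF values ran from -0.0953 to 0.0929 for Tet1, -0.0730 to 0.115 for Tet3, -0.0603 to 0.0669 for Dnmt1 and -0.417 to 0.00715 for Dnmt3a. Dnmt1 went to 0.0600 with length offsets in TF, and without 1 replicate ran from -0.0969 to 0.0544 in TF and -0.0134 to 0.142 in TFD.

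Replicate numbers did not pair the samples. Of 15 pairs of libraries with the same number, 3 had correlated deviations over 0.1 (range -0.30 to 0.25). With the number as a replicate block, 42 genes were called between DF and TFD, and Uhrf1 in TFD was -0.33 with an adjusted p of 0.0808.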
